A study of Rattus norvegicus with 12 samples.

Results

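RNA that came down with preimmune antibody, and so without an antibody against the target protein, was described on the 6 preimmune arrays of a series of 12. The arrays were chosen by their labels, which number them Ctrl 1 to Ctrl 6, and they are called preimmune replicates 1 to 6 here. The other 6 arrays, immunoprecipitates of the RNA-binding protein Staufen2, were not analysed here. All lysates were made from whole brains of Sprague Dawley rat embryos at embryonic day 17 to 18, although the tissue label of these arrays reads P18. For the 6 controls, cleared lysate in a Triton X-100 buffer was incubated with rabbit preimmune antibody, then with protein A-sepharose, and the washed resin was eluted by heating. The recovered RNA was extracted with Trizol, amplified, labelled with biotin and hybridised to Illumina rat BeadChips with 22226 probes. The labels do not say which brains, lysates or serum stood behind each array, so the spread between arrays may be technical.

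A preimmune immunoprecipitate holds whatever sticks to serum antibodies, to protein A, to the sepharose bead or to the tube, together with lysate left behind by washing. Messenger RNAs that are abundant in the lysate, such as those for ribosomal proteins, tubulins and actins, are common in such material. Protein A binds the constant region of immunoglobulin G. Labelled RNA can also bind array probes that do not match it well, and some array probes give a signal of their own, so a signal above background is not always an RNA in the eluate.

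For each array the median raw signal of the probes with a detection p-value from 0.4 to 0.6 was taken as background and subtracted. The remainder is called the excess signal, and probes were ranked by it within each array, with rank 1 the highest. A probe with a detection p-value under 0.05 was called detected. Probes differ in how well they bind, so a rank is the place of a probe's signal and not of its transcript's abundance, and comparisons below set a probe against itself on other arrays.

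The 6 arrays differed widely in how much signal they held. Background was 79.6, 75.4, 77.8, 69.3, 70.01 and 66.6 signal units on replicates 1 to 6, a 1.2-fold range. The yield of an array, defined as the median excess of its top 100 probes, was 1347, 297, 2550, 2116, 631 and 105 in the same order. Replicate 3 thus stood 24.3-fold above replicate 6. Detected probes numbered 6630, 3907, 7565, 7724, 5501 and 2570, a mean of 25.4% ± 9.32 of all probes (SD, n = 6). Replicates 3 and 4 had the highest yields and the most detected probes, and replicate 6 the lowest of both. Columns of the deposited table carry array codes in 2 separate runs of numbers: replicates 1 to 4 lie in the first run of codes and replicates 5 and 6 in the second. No source used here says what the runs stand for.

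The shape of the background was much alike on all arrays although its size was not. The top 100 probes carried 27.5, 28.4, 27.8, 28.5, 25.6 and 27.3% of the summed excess of detected probes on replicates 1 to 6, a mean of 27.5% ± 1.04 (SD, n = 6). Their top 10 carried between 7.31% on replicate 3 and 9.74% on replicate 6. The top 1000 carried between 65.5% on replicate 5 and 72.1% on replicate 6. Each array's own top 100 probes thus held at least 25.6% of its measured excess, although only 52 probes were common to all 6 of these lists.

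An alpha-tubulin probe (Tuba1, a subunit of microtubules) held rank 1 on all 6 arrays. Its raw signal was 12596, 3179, 14881, 13344, 8293 and 2238 on replicates 1 to 6. That was 1.94, 2.16, 1.30, 1.37, 2.42 and 3.63% of the summed excess, so its share was highest on the array with the least yield and lowest on the array with the most. The second gene by mean rank was LOC363377, which the files describe only as similar to RIKEN cDNA 2410116I05. It held ranks 3, 4, 2, 2, 2 and 2, with 0.836 and 0.808% of the excess on replicates 1 and 2 against 2.14 and 2.12% on replicates 5 and 6. A second alpha-tubulin, Tuba1b, was ranked 5, 7, 6, 5, 3 and 4.

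The next places held many housekeeping genes of translation, protein turnover and calcium signalling. Rplp0, a protein of the large ribosomal subunit, was ranked 6, 5, 4, 4, 15 and 3. Calm2, which encodes the calcium sensor calmodulin, was ranked 7, 6, 11, 9, 5 and 6, at 0.501% ± 0.0550 of the excess (SD, n = 6). The polyubiquitin gene Ubb was ranked 8, 12, 18, 12, 4 and 5. Rpl29, Rpl3 and Rpl37a, all of the large ribosomal subunit, the translationally controlled protein gene Tpt1 and the prolyl isomerase gene Ppia had mean ranks of 12, 19.7, 26.5, 14.5 and 15.0. Hmgn2, a nucleosome-binding protein, cofilin 1 (Cfl1, which severs actin filaments), Tubb2a and the growth-cone protein gene Basp1 had mean ranks from 23.8 to 27.5. Besides these, the 20 genes with the lowest mean rank held the globin Hba-a1, with a mean rank of 17, and Rpl15l1, Ftl1l7, LOC500547 and LOC361026, which the files describe as similar to ribosomal protein L15, ferritin light chain and ribosomal proteins L37a and L7a.

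**Figure D1:**
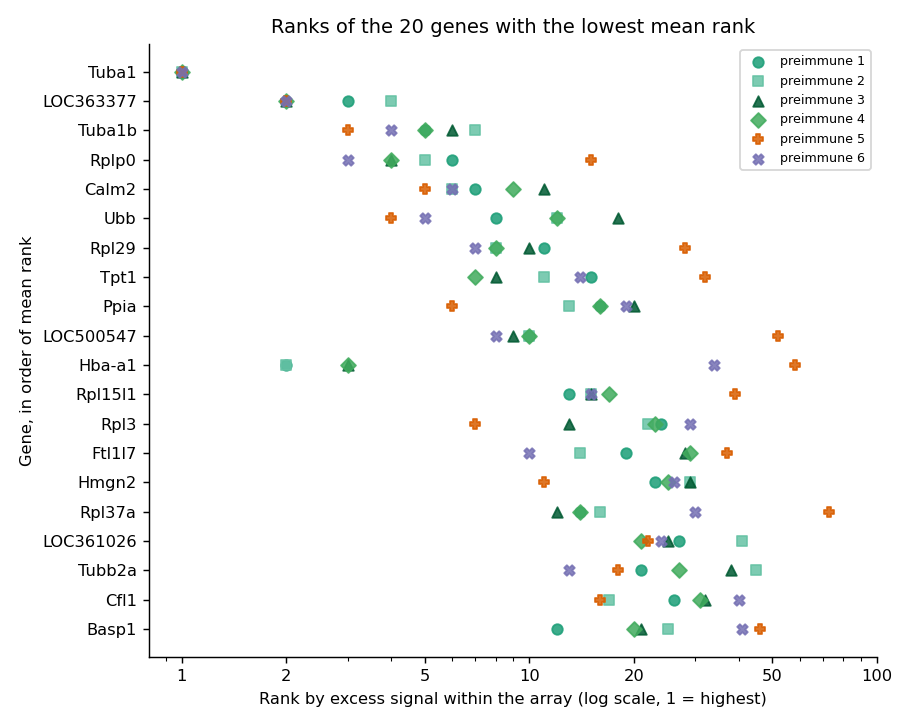
Rank by excess signal (log scale, 1 is the highest) of the 20 genes with the lowest mean rank, in order of mean rank, with 1 point for each of the 6 preimmune arrays. Tuba1 is at rank 1 on all 6 arrays, and replicate 5 stands to the right of the others for Rpl29, Tpt1, LOC500547, Rpl37a and Rplp0.

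Of the 100 probes with the lowest mean rank, 41 were for ribosomal proteins or were described as similar to one. Another 4 were tubulins, 4 actins or cofilin, 4 histones or high mobility group proteins, 3 ferritins and 2 globins, and all 100 were detected on all 6 arrays. The files describe 30 of the 100 only as similar to another gene. Ribosomal protein genes have many near-identical copies, and signals of such probes cannot be assigned to 1 copy.

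Few of the genes on the array were detectable on every control. With 1 probe per gene, 1698 of 21698 genes, or 7.83%, were detected on all 6 arrays, and 12211 were detected on none. Counted by probe, 1732 of 22226 were detected on all 6, and 3031 on the other 5 when replicate 6 was left out. Genes in the top 100 on all 6 arrays were 0.24% of all genes, that is 52 genes.

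Cytosolic ribosomal proteins ranked highest of 24 gene lists by the mean over arrays of the list's median percentile. The lead was small, at 98.8 ± 0.687 against 98.6 ± 0.509 for 14-3-3 proteins and calmodulins (SD, n = 6). On replicate 5 that list (97.8) and histones and high mobility group proteins (99.2) stood higher. Of the 77 genes of the ribosomal protein list on the array, 56 were detected on all 6 arrays, 13 on some and 8 on none, against 7.83% of all genes detected on all 6. Its median gene stood at percentiles 99.1, 99.1, 99.2, 99.2, 97.4 and 98.9 of the ranking on replicates 1 to 6, where the median of all genes is 50 by construction. Together its members carried 8.34, 8.44, 9.32, 9.35, 4.70 and 7.30% of the summed excess, and 22, 24, 20, 22, 12 and 21 of them were in the top 100. Replicate 5 was lowest by each of these 3 measures. Of 35 translation factors, 20 were detected on all 6 arrays, and their median percentile was lowest on replicate 6, at 93.0, with Eef1a1, which brings aminoacyl-tRNA to the ribosome, at ranks 58, 42, 45, 43, 26 and 47, and Eef2, which moves the ribosome along, at a mean rank of 79.8.

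Genes of energy metabolism and protein turnover were also well represented. Of 61 genes of oxidative phosphorylation, 39 were detected on all 6 arrays and the median percentile ran from 94.5 to 97.1. Atp5f1b, the beta subunit of ATP synthase, was ranked 52, 66, 61, 55, 10 and 54, and Cox6a1 and Atp5po had mean ranks of 101.8 and 119.2. Proteasome subunits were detected on all 6 arrays for 21 of 31 genes, led by Psmb1, Psmd3 and Psmc1 at mean ranks of 193.8, 248.2 and 284.2. Glycolytic enzymes ranked lower, with 6 of 14 genes detected throughout and none in the top 100. Probes for predicted genes are not in that list, and 2 of them are described as similar to glyceraldehyde-3-phosphate dehydrogenase: LOC500983 was ranked 46, 32, 83, 60, 9 and 44, and LOC498099 170, 134, 255, 216, 60 and 166. The probe named Gapdh, a gene often used as a reference, was ranked 653, 653, 733, 774, 427 and 1650, Tpi1 had a mean rank of 316.7 and Pgk1 was ranked 775, 995, 913, 757, 225 and 998.

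Cytoskeletal genes supplied several of the brightest probes. Tuba1 itself is an older symbol that the tubulin list does not hold. Of the 12 tubulins of that list on the array, 6 were detected on all 6 arrays and Tuba1b, Tubb2a and Tubb2b were in the top 100 throughout. Actin and actin-binding genes were detected on all 6 arrays for 15 of 24, with gamma-actin (Actg1) at ranks 18, 31, 54, 42, 12 and 11. Beta-actin (Actb) was ranked 65, 58, 114, 107, 98 and 65. Among neuronal microtubule regulators 6 of 22 were detected throughout, led by Crmp1, Stmn1 and the dynein light chain gene Dynll1 at mean ranks of 51.5, 91.0 and 162.7. Map1b and Map2, large microtubule-associated proteins of axons and dendrites, were detected on 4 arrays each.

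RNA-binding, chromatin and signalling genes were detected to different degrees. Among hnRNP, splicing and poly(A)-binding proteins, 17 of 39 genes were detected on all 6 arrays, led by Snrpn, Hnrnpl and Hnrnpu at mean ranks of 75.0, 274.2 and 403.3. Histones and high mobility group proteins were detected throughout for 7 of 13, with H3f3b and H2az1 at mean ranks of 50.0 and 50.5. Of 10 genes for 14-3-3 proteins and calmodulins, 8 were detected throughout, with Ywhae at ranks 31, 23, 70, 65, 14 and 28 and Ywhaz at a mean rank of 63.0. Calm3 kept nearly the same place on all arrays, at ranks 615, 604, 636, 642, 705 and 695. Of 39 chaperones and prolyl isomerases, 19 were detected throughout, and the chaperonin subunits Cct7 and Cct4 had mean ranks of 233.3 and 318.0.

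The brain label was read against cell type markers, and neuron and progenitor genes were present. In such bulk material fewer cells of a type and less RNA per cell cannot be told apart. Of 24 neuron markers, 13 were detected on all 6 arrays, with Gap43 of growth cones at ranks 25, 27, 34, 30, 101 and 45, and Stmn2 and Tubb3 at mean ranks of 215.8 and 335.3. Neural progenitor markers were detected throughout for 5 of 19, with the radial glia gene Fabp7 at ranks 17, 19, 33, 32, 51 and 22, Dbi at a mean rank of 130.8 and Pcna, which clamps DNA polymerase, at 217.5. No marker of astrocytes and oligodendrocytes (of 14), of microglia and leukocytes (of 21) or of choroid plexus (of 8) was detected on all 6 arrays, but in lists this short that is near the 7.83% of all genes. Of the 14, 8 were detected on some arrays, among them Gja1 on 5, Olig1 and Cnp on 4 and Gfap on 1, and 6 on none, among them Aqp4, Slc1a2 and Mog. Of 8 genes for immunoglobulin-binding Fc receptors, 0 were detected on all 6 arrays and 5 on none, which is also near the shares of all genes, 7.83% and 56.3%. The endothelial and meningeal list had 3 of 16 detected throughout, namely Igf2, Cldn5 and Esam.

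Few synaptic and dendritic genes reached the brightest ranks. Of 28 synaptic vesicle and SNARE genes, 5 (17.9%) were detected on all 6 arrays, against 7.83% of all genes. Of these 5, 1 belonged to the constant class described below, whose signal did not follow the yield of the array. The median percentile ran from 46.9 on replicate 6, which detected 5 of them, to 71.4 on replicate 2, which detected 10. Sv2b, a synaptic vesicle glycoprotein, was the exception in rank, at 47, 62, 5, 11, 477 and 53, and Stx7 had a mean rank of 543.7. Of 42 neurotransmitter receptors and voltage-gated channels, 5 (11.9%) were detected throughout, with Cacnb3 and Gria2 at mean ranks of 941.7 and 1110. However, 3 of these 5 belonged to the constant class, against 31.1% of all probes detected on all 6 arrays. Among 14 Staufen and dendritic candidates, Calm3 and Arc (14.3%) were detected on all 6 arrays, against 7.83% of all genes, and Arc belonged to the constant class. Stau1 and Stau2 were detected on 4 and 3, Rbm8a and Ddx6 on 5 each, Magoh and Fmr1 on 4 each, Rgs4 on 3, Camk2a on 1, and Bdnf and Bcl2l1 on none. A second probe for Ddx6 was detected on 1 array and had a mean rank of 16149, so the pair of probes disagreed.

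**Figure D2:**
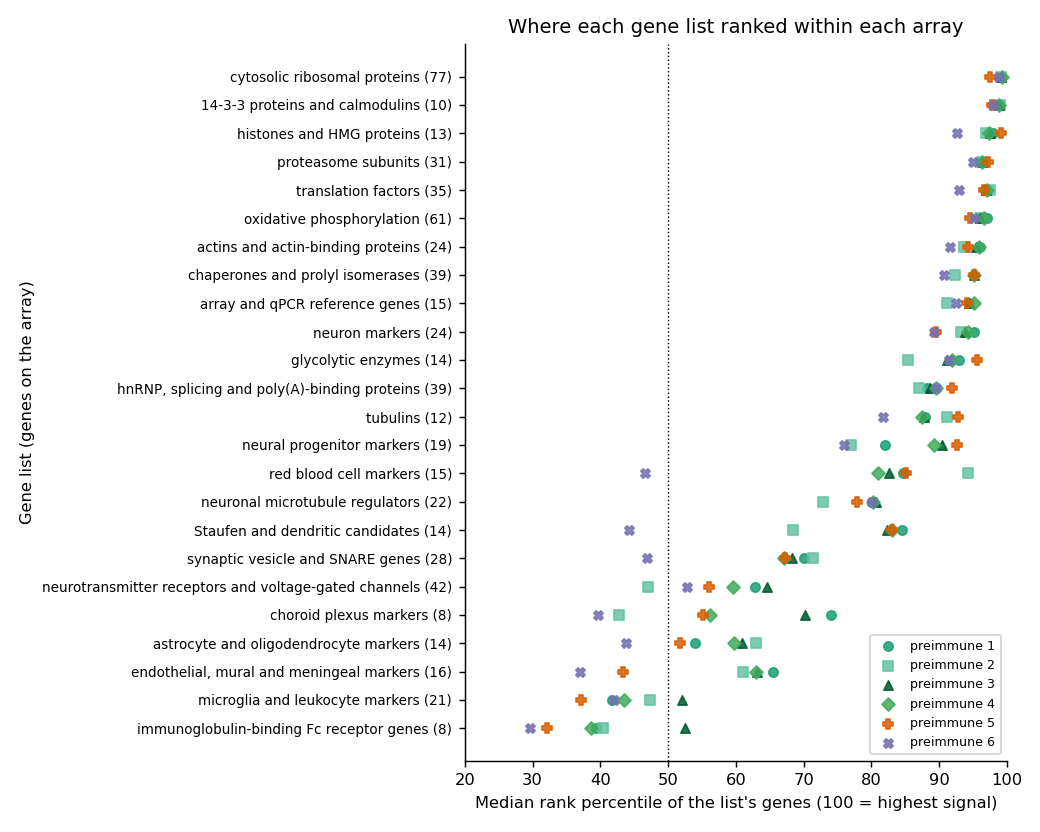
Median rank percentile (100 is the highest signal) of each of 24 gene lists on each of the 6 preimmune arrays, with the number of genes on the array in brackets and a dotted line at the median of all genes. Cytosolic ribosomal proteins lie between 97.4 and 99.2 on all 6 arrays, while Fc receptor genes lie between 29.6 and 52.6.

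Reference genes for normalisation covered the whole scale. Of the 15 on the array, 10 were detected on all 6 arrays. Besides Rplp0, Ubb, Ppia, Ywhaz, Actb, Gapdh and Pgk1 named above, Hprt1 of purine salvage held ranks 1698, 1937, 1882, 1775, 1471 and 2296. Sdha of the respiratory chain and Polr2a of RNA polymerase II were detected throughout at mean ranks of 2343 and 3534. Polr2a was the 1 probe of this list in the constant class described below, with a slope of 0.379. B2m, a partner of class I histocompatibility proteins, and Tbp were detected on 4 arrays, Gusb on 2 and Tfrc on none. B2m was ranked 1223, 2066, 1198 and 1049 on replicates 1 to 4 and 10558 and 13427 on replicates 5 and 6.

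Whether ranks held between arrays of high and low yield depended on how far down the list one went. Of the 10 top probes of replicate 3, the array with the highest yield, 8 were in the top 10 of replicate 2, whose yield was 297, and 6 in the top 10 of replicate 6, whose yield was 105. Replicate 5, whose yield was 631, held only 3 of them in its top 10. All 100 of the top 100 of replicate 3 were detected on each of the other 5 arrays. Its ranks 201 to 500 were still detected on replicate 6 for 91.3% of probes, but their median rank there was 802.5. Of its ranks 1001 to 2000, 33.1% were detected on replicate 6, 80.5% on replicate 2 and 96.1% on replicate 5.

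Top lists were shared to different degrees by different pairs. In the top 100, the 6 pairs among replicates 1 to 4 shared 86 to 90 probes. Replicate 6 shared 77 to 82 with them in spite of its low yield. Replicate 5, whose yield was higher than that of replicates 2 and 6, shared only 60 to 64 with them and 68 with replicate 6. Sharing among the top probes thus did not follow yield. Deeper lists gave another order: in the top 500, replicate 6 shared 251 to 260 probes with replicates 1 to 4, fewer than the 327 to 341 of replicate 5. Across all 6 arrays, 3 probes were common to the top 10, 18 to the top 50, 52 to the top 100, 115 to the top 200, 217 to the top 500 and 455 to the top 1000.

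**Figure D3:**
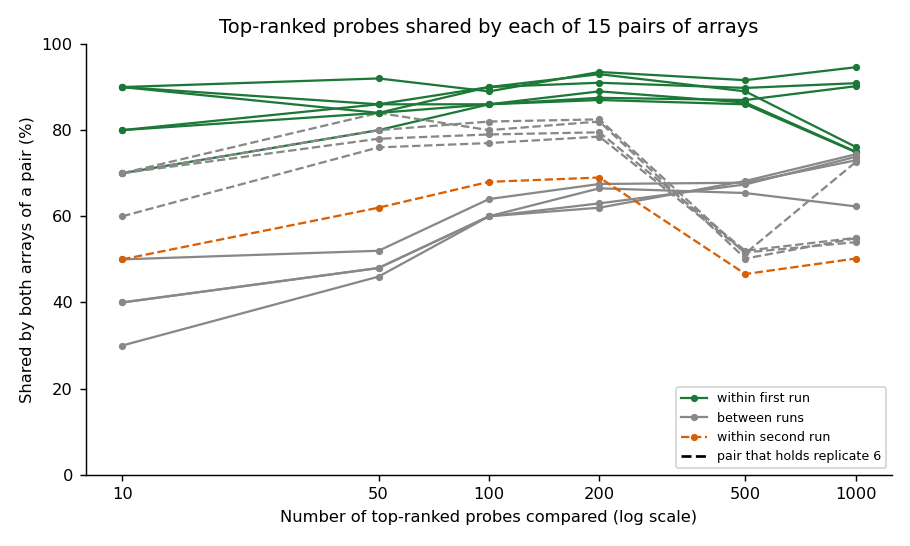
Share of top-ranked probes (%) common to both arrays of each of the 15 pairs, against the number of top probes compared (log scale), with 1 line per pair, coloured by run of array codes, and dashed where the pair holds replicate 6. Pairs of replicates 1 to 4 share 86 to 90 of their top 100, and pairs with replicate 6 drop between the top 200 and the top 500.

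Spearman's rho across probes detected on both arrays gave another order than the top lists. It was 0.94 between replicates 1 and 3 and 1 and 4, and 0.97 between replicates 3 and 4. Replicate 2 reached 0.66 to 0.70 with these 3, replicate 5 0.78 to 0.80 and replicate 6 0.40 to 0.45. Probes on 1 array share its hybridisation and are not independent, so these values describe the arrays only.

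Faint arrays also brought up a second class of probes, whose signal did not follow yield. For the 1732 probes detected on all 6 arrays, the slope of log2 excess on log2 yield was taken over the 6 arrays. A slope of 1 means signal in proportion to yield and 0 a constant signal. Slopes fell into 2 heaps, 1 near 0 and 1 near 1, and a cut at 0.5, chosen after the slopes were seen, gave 1194 scaling probes with a median slope of 0.96 and 538 constant probes with a median slope of 0.048. Only 96 probes lay between 0.3 and 0.6. Sept8 and Pick1, both at 0.499, were the last constant probes inside the cut, and Wtip and LOC362315, both at 0.503, the first outside.

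The median of the constant class hardly changed between arrays, as the cut on the slope requires, while its single probes could change more: 434 of 538 had a slope under 0.2. The median excess of the class was 32.3, 30.7, 34.6, 29.98, 29.4 and 28.7 on replicates 1 to 6, while that of scaling probes was 196, 39.9, 344, 293, 99.4 and 15.4. On arrays where other probes were faint, the constant ones therefore stood higher in rank. They first appeared at rank 1344, 512, 1468, 1451, 778 and 176, and the top 1000 held 0, 210, 0, 0, 4 and 391 of them. Their part of the summed excess was 2.64, 10.4, 1.73, 1.78, 4.55 and 22.7%. This part was largest on replicate 6, the array with the lowest yield.

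**Figure D4:**
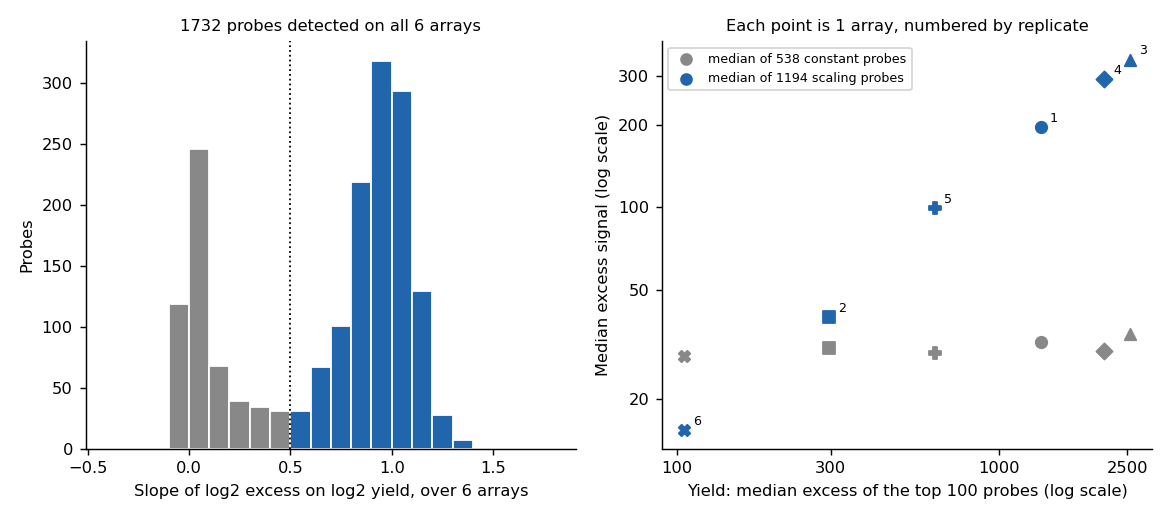
Left, number of probes by slope of log2 excess on log2 yield for the 1732 probes detected on all 6 arrays, with constant probes in grey, scaling probes in blue and the cut at 0.5 dotted. Right, median excess signal of each class against yield (both log scales), 1 point per array: the constant class stays between 28.7 and 34.6 while the scaling class runs from 15.4 to 344.

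Several genes of neurons and red blood cells were among the constant probes, which made up 31.1% of all probes detected on all 6 arrays. Of the list members detected on all 6 arrays, 2 of 13 neuron markers and 3 of 6 red cell markers were constant. The names below are thus examples and not a trait of neuron genes. Kcnj4, an inward rectifier potassium channel, had a raw signal of 121, 118, 117, 107, 110 and 105 and was ranked 3815 on replicate 3 and 222 on replicate 6. Arc, whose messenger RNA is known to travel into dendrites, had 110, 102, 110, 101, 104 and 96.2 and was ranked 4383 on replicate 3 and 521 on replicate 6. The red cell membrane genes Slc4a1, Kel and Epb42 the neuron markers Gad2 and Nefm and the endothelial Esam were also in this class, so their signal did not follow the yield. Olfactory receptors, which are expressed in the nose, gave 19 constant and 0 scaling probes. That is 3.53% of the constant class, against 1.10% of the probes detected on all 6 arrays and 5.32% of all probes. Vomeronasal receptors gave 3 and 0, while symbols of ribosomal proteins gave 4 and 81. Receptors of the nose were thus a larger part of the constant class than of the detected probes it was drawn from. They were no larger a part of it than of the array.

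One block of the array stood out within the constant class. Of 152 probes with a probe number above 160000 and a sequence number as key, 151 were detected on all 6 arrays and 146 were constant, with medians from 30.9 to 35.8 excess units on the 6 arrays. Another 250 probes in that range of numbers, keyed by a sequence cluster, had medians from -0.49 to 0.47, and only 6 were detected throughout. These 2 kinds of probe carry the files' own keys, and no source used here says what sets them apart. Outside both kinds, 1575 probes were detected on all 6 arrays, 386 of them constant and 1189 scaling.

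Over the scaling probes alone, faint and bright arrays ranked much more alike. Spearman's rho of replicate 6 with replicates 1 to 4 was then 0.77 to 0.79, in place of 0.40 to 0.69 over probes detected on both arrays. For replicate 2 with replicates 1, 3 and 4 it lay between 0.92 and 0.94. Replicate 5 stayed at 0.71 to 0.79 with replicates 1 to 4, and at 0.68 with replicate 6. Within this class the low-yield replicates 2 and 6 had values about as high as or higher than those of replicate 5. Over all probes detected on all 6 arrays, replicate 5 had 0.68 to 0.88 with replicates 1 to 4, and replicate 6 had 0.27 to 0.66. The class was defined by slope on yield over these same 6 arrays, which leaves out probes that change place on faint arrays. Higher values for faint arrays are thus partly built in, and this is a description.

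Globins, the oxygen carriers of red blood cells, varied widely between arrays. Hba-a1, the alpha chain of haemoglobin, was ranked 2, 2, 3 and 3 on replicates 1 to 4 but 58 and 34 on replicates 5 and 6. Its raw signal was 6713, 2379, 10316 and 9391 on the first 4 arrays and 642 and 205 on the last 2. The beta chain, Hbb, was ranked 4, 3, 7, 6, 302 and 79, and the beta-globin-like MGC72973 60, 39, 82, 84, 1326 and 609. All 3 probes were higher on replicate 2 than on replicate 5, by rank and by raw signal, although replicate 2 had the lower yield. By share of summed excess, the mean of replicates 5 and 6 was 5.63-fold below that of replicates 1 to 4 for Hba-a1, 7.0-fold for Hbb and 6.10-fold for MGC72973.

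Some predicted genes ran the other way. LOC498048 and LOC361942, both described as similar to ORF4, were ranked 732, 2219, 378, 255, 24 and 20 and 621, 1560, 401, 212, 29 and 25. The pair LOC363492 and LOC362543, described as similar to Ac1262 and LRRG00116, were ranked 35 and 75 on replicate 5, 33 and 61 on replicate 6, and 307 to 2495 on replicates 1 to 4. The raw signal of LOC498048 was 259, 90.6, 634, 703, 858 and 247, so it was brighter on replicate 5, with a yield of 631, than on replicate 3, with a yield of 2550. Chosen after their values were seen, LOC501548 and LOC501637, both similar to LRRG00135, and LOC362315, described as similar to a retrovirus-related POL polyprotein, behaved alike. The 7 probes had a 5.00- to 6.98-fold higher mean share on replicates 5 and 6 than on replicates 1 to 4. Probes with such near-identical descriptions may bind the same RNA and are not independent.

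**Figure D5:**
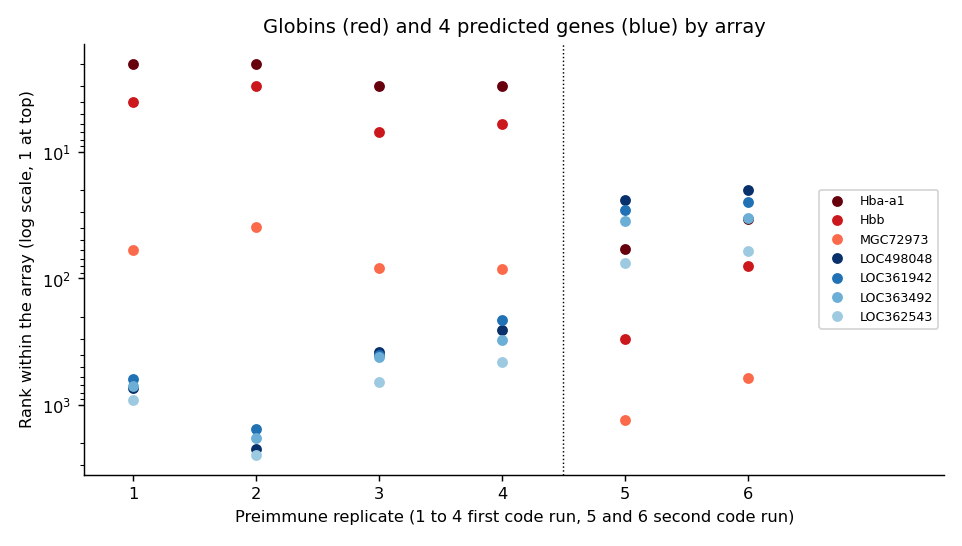
Rank within each preimmune array (log scale, rank 1 at the top) of 3 globin probes in red and 4 predicted genes in blue, with a dotted line between the 2 runs of array codes. Globins lie at ranks 2 to 84 on replicates 1 to 4 and at ranks 34 to 1326 on replicates 5 and 6, and the predicted genes lie the other way round.

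Across the 1194 scaling probes, differences of this kind were common. The share of excess was higher on both replicates 5 and 6 than on all of replicates 1 to 4 for 170 probes (14.2%) and lower on both for 257 (21.5%). With shares taken over scaling probes only, the counts were 225 (18.8%) and 217 (18.2%), so their balance depends on the denominator. The nearest arrays of the 2 runs differed more than 2-fold for 15 of the higher and 11 of the lower probes. Beside the globins, and chosen after their values were seen, the lower ones held Nell2 at 4.23-fold, Laptm4a at 3.80-fold, the tight junction gene Cldn5 at 3.07-fold and the growth factor gene Igf2 at 3.02-fold. On replicate 6 the raw signals of these 4 were 75.9, 78.8, 75.4 and 86.5, not far above the background of 66.6, so their folds are imprecise. The runs hold 4 arrays and 2, and replicates 5 and 6 also have lower yields than 3 of the other 4, so the part of yield in these counts was not tested.

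By gene list, 30 of 56 scaling ribosomal protein probes were lower on both second-run arrays and 0 were higher, against 21.5% and 14.2% of all scaling probes. With shares over scaling probes only, 24 were lower and 0 higher. The summed share of the whole list without constant probes was 8.57, 9.42, 9.48 and 9.52% on replicates 1 to 4, 4.93% on replicate 5 and 9.44% on replicate 6, so by that measure replicate 5 alone was low. Oxidative phosphorylation had 16 of 38 lower and 3 higher, or 14 and 3 over scaling probes only, and translation factors 7 of 19 lower and 1 higher, or 4 and 2. Among hnRNP, splicing and poly(A)-binding proteins 5 of 15 were higher and 1 lower, or 6 and 0, and among tubulins 2 of 6 were higher and 0 lower, or 3 and 0. Of the 3 scaling red cell probes in the list, 2 were lower and 0 higher.

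Replicate 5 had top genes of its own. Of probes in the top 100 of 1 array only, it held 27, against 1, 2, 4, 1 and 4 on replicates 1, 2, 3, 4 and 6. Those named here were chosen after their values were seen. The first by rank was Ldhal1, at 17 on replicate 5 and 153 to 214 elsewhere. The histone variant Macroh2a1 was ranked 23 there and 137 to 547 elsewhere, the topoisomerase Top2b 27 against 217 to 271, and the helicase Ddx5 31 against 184 to 501. Ddah2, Tubb2, Hmgcs1, Pcna, Khdrbs1, Vcp, Ewsr1, Rad21, Vim and Cct7 were also among them. On the same array the ribosomal proteins Rpl29 and Rpl37a held ranks 28 and 73, and the mitochondrial Cox6a1 and Atp5po ranks 290 and 236.

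A small set of genes held its place in spite of all this. Among the 100 genes with the lowest mean rank, and outside the first 20 of them, the smallest log2 spans of rank were those of Pebp1, Rpl6, LOC500669, Skp1, Hmgn1, Actr2, Rps3a-ps4 and Rpl4. The kinase inhibitor gene Pebp1 was ranked 64, 68, 66, 77, 78 and 56, at 0.172% ± 0.0135 of the excess (SD, n = 6). Actr2, a core subunit of the actin-nucleating Arp2/3 complex, was ranked 69, 63, 69, 76, 56 and 86, and the ubiquitin ligase subunit gene Skp1 93, 114, 107, 98, 77 and 103.

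Single ranks are softer than they look. The bead standard error measures how precisely the beads of 1 probe give its signal on 1 array. It was 4.17 to 7.86% of the excess near rank 100 and 5.33 to 20.8% near rank 1000, highest on replicate 6 in both cases. Of 100 neighbouring pairs at the top of each ranking, only 7, 6, 6, 5, 4 and 3 differed by more than 2 bead standard errors. Neighbours in rank are therefore mostly not distinguishable on 1 array, and only differences of many places between arrays can be read.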

How the data were processed

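Whole-brain lysates of rat embryos were precipitated with preimmune antibody and the RNA was hybridised to Illumina BeadChips. The authors deposited 1 table with a raw signal intensity, a detection p-value and a bead standard error per probe and array, and a value table of log2 values, which matched log2 raw signal within 0.0001 for each of 22226 probes. The submitters' processing notes name RMA, with no version, and no source used here names the array annotation or a genome build. Array codes unknown to the labels head the detection p-values. Each such column was assigned to the adjacent signal column, and the match was checked by sorting probes on signal: 240 to 268 of 22225 successive p-values then broke the order, against at least 8498 with another preimmune array's p-values. Symbols were updated through RefSeq genes of assembly GRCr8 (names only): 8048 probes matched by current symbol, 5393 by gene number and 3402 by 1 older symbol, while 5117 without a match and 69 with several kept the file's symbol, and 197 had none.

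Excess signal, ranks and detection were computed in Python 3.11.15 with pandas 2.3.3, without scaling between arrays. Shares are of the summed excess of an array's detected probes. For gene lists the probe with the highest mean share stood for its gene. Slopes were least-squares fits over the 6 arrays, and the steps that compute slopes and shared ranks were tested on simulated data. The alternatives were another background (the lower quartile of signal, or normexp of limma 3.58.1 in R 4.3.3), a detection p-value under 0.01, the median over a gene's probes, leaving out each array, and the first run of array codes alone.

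The arrays, the gene lists and the rule for named genes were chosen with earlier results of these data known. The rule named the 20 genes with the lowest mean rank, the top 5 of each array, the 8 largest log2 rank spans among genes in the top 100 of any array and detected on all 6, the 8 smallest among the 100 genes with the lowest mean rank outside the first 20, up to 3 members of each list, and all members of the Staufen and reference lists. No test was run, since 1 group is described. The precision of a value is limited by 6 arrays and by signal over background. Probe sequences were not used here, and some single-gene values are left out.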

Additional observations from a re-analysis of the deposited data

Results flagged for a closer look

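In 35 of 139 sets of 6 values, 1 array stood apart from the other 5, by a gap past Dixon's critical value for 6 values. For independent sets of normal values, chance gives about 1 in 20. These sets are not independent and ranks are not normal. Some genes were also named for their large rank spans, so the 35 cannot be set against that rate. Replicate 5 was the array apart in 22 of the 35 sets, replicate 6 in 7, replicate 2 in 5 and replicate 1 in 1.

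On replicate 5 the share of summed excess was 1.86% for tubulins, against 1.08 to 1.36% on the other arrays, 0.416% for glycolytic enzymes, against 0.207 to 0.240%, 1.08% for proteasome subunits, against 0.817 to 0.912%, and 1.30% for hnRNP, splicing and poly(A)-binding proteins, against 0.605 to 0.810%. The tubulin list does not hold Tuba1, so its value covers the listed genes only. Tuba1 alone held 2.42% on replicate 5 and more, 3.63%, on replicate 6. The median percentile of cytosolic ribosomal proteins on replicate 5 was 97.4. Among the genes flagged on replicate 5, those that ranked lower on it than on all other arrays were Rplp0 (15), Rpl29 (28), Tpt1 (32), LOC500547 (52), Rpl15l1 (39), Rpl37a (73), Hbb (302), Sv2b (477), Cox6a1 (290), Atp5po (236), Gap43 (101), Dynll1 (303) and Stmn2 (499). The flagged genes that ranked higher were Hmgn2 (11), Atp5f1b (10), Pgk1 (225) and H2az1 (19). Other named genes also had their lowest or highest place on replicate 5, by gaps that were not flagged.

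Replicate 6, the array with the least yield, had median percentiles of 93.0 for translation factors, 92.7 for histones and high mobility group proteins, 46.9 for synaptic vesicle and SNARE genes and 46.6 for red blood cell markers, each the lowest of the 6 arrays. It detected 5 of 28 synaptic genes and 6 of 15 red cell genes, so the medians of both these lists fall on undetected genes and are not levels. It ranked Tpi1 at 731, Gapdh at 1650 and Cct4 at 737, each the lowest place of the 6 arrays.

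Replicate 2 had a median percentile of 72.8 for neuronal microtubule regulators, of which it detected 8 of 22. It ranked LOC361026 at 41, LOC498048 at 2219, LOC362543 at 2495 and Hmgn1 at 145. Replicate 1 held 0.162% of its excess in Staufen and dendritic candidates, against 0.0875 to 0.112% elsewhere. Much of this came from 1 probe for Ddx6, with which the second Ddx6 probe disagreed. It held 0.0722% on replicate 1, 0.0475% on replicate 2 and 0.00641 to 0.00858% on replicates 3 to 5.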

How the results depend on the processing

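Of 1297 values recomputed under other settings, 1289 stayed within 1 SD between arrays or, for counts, within 1.5 times. Leaving out 1 array, or using the first run alone, cannot move a mean over the arrays by 1 SD. Most named genes have 1 probe, so the median over a gene's probes is that probe. The count of 1289 was thus largely fixed in advance and is no measure of robustness. Subtracting another background or using normexp keeps the order within an array by construction and can move shares and slopes, not ranks. The share in the top 100 probes was 29.3% at a detection p-value under 0.01 and 30.2% with normexp. In the first run of array codes alone, 3241 probes were detected on all of its 4 arrays and 79 were in the top 100 of all. Taking the top 50, 200 or 500 in place of 100 gave 18, 115 and 217 shared probes. Leaving out each array in turn gave 1746 to 3031 probes detected on all that remained, the last without replicate 6. Between 52 and 68 were in every top 100, the most without replicate 5.

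Added after the data were seen, a slope cut of 0.3 or 0.7 gave 473 or 636 constant probes, the lower-quartile background 554, and leaving out 1 array gave 553 to 690. Without constant probes in the denominator, the ribosomal protein share averaged 8.56% in place of 7.91%. No paired analysis was possible because 1 group was described and the result comes from no test. Depth limits the faint arrays: rank 1000 of replicate 6 corresponded to an excess of 15.9 units, against 238 on replicate 3.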
